A study of Ginkgo biloba with 2 samples.

Results

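MicroRNAs (miRNAs) are short RNAs that plants cut from hairpin transcripts with Dicer-like enzymes and load into ARGONAUTE proteins, where they pair closely with target transcripts and guide their cleavage or repression. A small core of miRNA families is shared between mosses, lycophytes and seed plants, while many other names were given to small RNAs known from a single lineage. A miRNA name is a registry number and says nothing of function, and a name used in another species rests on likeness to a registered sequence. The names described here are 6 known from early-diverging land plants, miR1083 from the lycophyte Selaginella and miR1220, miR1030, miR1023, miR537 and miR902 from the moss Physcomitrella, together with miR530, a name known from flowering plants whose listed molecule resembles that of miR1030. In rice, miR530 targets a transcript for a Plus3 domain protein and affects grain yield. These 7 of 723 known names were taken by name, miR530 for its likeness to miR1030.

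The small RNA of mature leaves was sequenced in Ginkgo biloba, a gymnosperm with separate female and male trees. There was 1 library of leaves from female trees and 1 library of leaves from male trees, both from healthy trees of about 30 years that grew outdoors and were sampled in June 2012, with no treatment named. Whether each library pools several trees is not stated in the sources used here. The tables hold small RNAs and no leaf marker transcripts, so the tissue label was not checked against markers.

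The library total, worked out from the deposited counts and levels, was 13193290 reads for female and 12137619 for male leaves. Whether it holds all sequenced reads was not checked. A single read was thus worth 0.0758 RPM (reads scaled by the authors to the library total) in female and 0.0824 RPM in male leaves. As each sex had 1 library, differences between them have no replicate check and no p-value. The 95% intervals below are exact. They express counting error alone, with reads taken as independent, and they hold nothing of the spread between trees. Amplified reads without molecular identifiers are not independent molecules, so the intervals may be too narrow. A name with no read was given an upper limit of 3 reads, which is 0.227 RPM in female and 0.247 RPM in male leaves. The upper end of the exact 95% interval of 0 reads was higher, 0.280 RPM in female and 0.304 RPM in male leaves. Ratios against the limit of 3 reads leave out the counting error of the other library, so they are not exact lower bounds. In whole leaves, fewer cells that make a small RNA and less of it per cell cannot be told apart.

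The deposited tables give 1 sequence per name and library, as DNA letters. Not given in the sources used here: how that sequence was picked from the reads of a name, and whether the read count covers it alone. The listed molecules are shown here because 5 of the 7 names were found in both libraries and their sequences tell whether the same small RNA stood behind the name. Each is written 5′ to 3′, with the seed (bases 2 to 8, counted from the 5′ end) in capitals.
miR1083, female: tAGCCTGGaacgaagcacgt
miR1083, male: tAGCCTGGaacgaagcacgta
miR1220, female and male: tTCCAGTCggttggaagatag
miR1030, female and male: tCTGCATCtgcacctgcacca
miR530, male: tGCATCTGcacctgcacct
miR537, male: tTGGGGTGatttacaggcgta
miR1023, female: aAACTACTttccatttctctc
miR1023, male: aGAGAATTcggagaaggctt
miR902, female: aGTAGAACtgcatcatac
miR902, male: aTTTGTTGcagaccttcat

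The same molecule was listed in both libraries for miR1220 and miR1030, and nearly the same for miR1083. The female molecule of miR1083 was contained whole in the male one, with the same 5′ end and seed, and the male one carried 1 further base, A, at its 3′ end. The molecules of miR1023 were 13 edits apart between the libraries and those of miR902 were 11 edits apart, with different seeds. For comparison, the median over all pairs of different names was 13 edits within either library. miR1023 and miR902 thus each listed unlike small RNAs in female and in male leaves.

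Over the 339 known names read in both sexes, 151 (44.5%) had an identical sequence and 19 (5.60%) had one contained in the other, against 2 and 1 of the 5 names here. Only 25 names (7.37%) were 11 or more edits apart and 15 (4.42%) were 13 or more edits apart. The female and male molecules were also compared as reverse complements, as opposite arms of a hairpin would be related. Those distances were 7 edits for both miR1023 and miR902, with longest paired stretches of 6 and 5 bases. For miR1083, miR1220 and miR1030 they were 11, 14 and 8 edits, with stretches of 4, 5 and 4 bases. These last values set a molecule against its own reverse complement, or nearly so for miR1083, and cannot show opposite arms. Reverse complements were not compared over all names, so whether 7 edits is unusual was not tested.

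**Figure D1:**
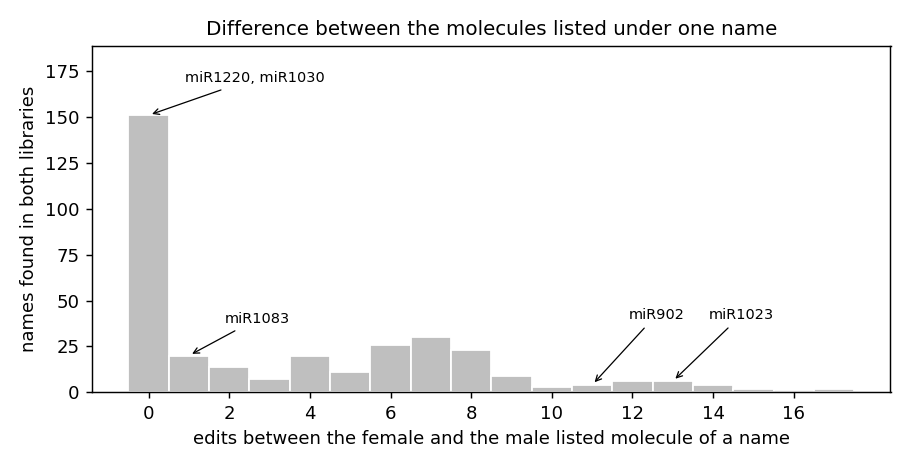
Number of names found in both libraries (y axis) by the number of edits between the female and the male listed molecule (x axis). The bar at 0 edits holds 151 of 339 names, among them miR1220 and miR1030; miR1083 lies at 1 edit, miR902 at 11 and miR1023 at 13.

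The first base set miR1023 and miR902 apart from the other 5 names. The molecules of miR1083, miR1220, miR1030, miR537 and miR530 all began with T (U in the RNA), the base that plant ARGONAUTE1 prefers at the 5′ end, whereas both molecules of miR1023 and both of miR902 began with A. Over all listed molecules, T came first in 266 of 530 names (50.2%) in female and 275 of 532 (51.7%) in male leaves. The most usual plant length of 21 bases was listed for miR1220 and miR1030 in both libraries, for miR1023 in female leaves and for miR1083 and miR537 in male leaves. The other library had 20 bases for miR1083 and miR1023. miR902 was listed with 18 bases in female and 19 in male leaves, and miR530 with 19 bases in male leaves. Molecules under 20 bases were 11.3% of the names in female and 8.08% in male leaves. The G and C content ran over 33.3% (miR1023, female) to 57.9% (miR530, male).

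In the male library, miR530 overlapped miR1030, the likeness for which it was included. Aligned at the shared stretch of 18 bases, miR530 covered positions 3 to 21 of miR1030, counted from 1 at the 5′ end of miR1030, with the substitution A21T at the last position. The shift of 2 bases at the 5′ end gives the molecules different seeds. The pair was 3 edits apart, and another name within 3 edits was found for 19 of 532 names (3.57%) in male leaves. Reads of so similar a pair may have been split between the names by the authors' matching, so the sum of both is also given below.

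Apart from that pair, no molecule listed under another name in the same library was within 5 edits of these names. In the female library the nearest name to miR1083 was 8 edits away (miR5996, miR6452 and miR5225), to miR1220 also 8 (miR4351, miR5632 and miR7825 among 5 names), to miR1030 6 (miR1028), to miR1023 8 (miR782 and miR7511) and to miR902 7 (miR1533). In the male library the nearest was 7 edits away for miR1083 (miR1160) and miR1023 (miR5265 and miR6213). It was 8 edits away for miR1220 (miR4351, miR5632 and miR7825 among 4 names), miR537 (miR1043 and miR3953) and miR902 (miR5081, miR2619 and miR2876). The median smallest distance over all names was 7 edits in either library. A seed was shared with another name in the same library in 1 case only, male miR902 with miR5234.

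Molecules listed in 1 library only were also compared with all other names of the other library. Male miR530 had a near-identical counterpart there, female miR1030, at 3 edits. The male molecule of miR537 was 7 edits or more from every molecule listed in female leaves (miR1055 and miR5767 were nearest). For miR1023, the female molecule was 9 edits from the nearest other name in male leaves (miR7719), and the male molecule 6 edits from the nearest in female leaves (miR1441). For miR902 these distances were 6 edits (miR6429) and 8 edits (miR1154 and miR1518).

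miR1083 and miR1220 were among the most abundant miRNAs in leaves of both sexes, while the other 5 names were at trace to moderate levels. The 7 names together took 117433 of 2467619 known miRNA reads (4.76%, interval 4.73 to 4.79%, Clopper-Pearson) in female and 111040 of 2446761 (4.54%, 4.51 to 4.56%) in male leaves. Of these, miR1083 and miR1220 made up 99.8% in female and 99.0% in male leaves. The next name in order after miR1220 was miR1030, and this pair was 260-fold apart in female (interval 221 to 308) and 49.9-fold apart in male leaves (45.7 to 54.5).

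miR1083 had 78684 reads (5964 RPM) in female and 83973 reads (6918 RPM) in male leaves. It ranked 5 of 530 names found in female and 6 of 532 in male leaves. The value was 1.16-fold higher in male leaves (interval 1.15 to 1.17; log2 female over male -0.21), a direction that turned under scaling by the median ratio (0.02). That scaling sets to 0 the median log2 ratio of -0.23 over the 117 names that reached 10 RPM in both libraries.

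miR1220 had 38470 reads (2916 RPM) in female and 25927 reads (2136 RPM) in male leaves, rank 8 and rank 13. The same molecule was listed in both. Its level was 1.37-fold higher in female leaves (interval 1.34 to 1.39; log2 0.45), and higher there under both other scalings. Relative to the general median of -0.23, the log2 difference was 0.68.

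miR1030 stood far lower and was higher in male leaves. It had 148 reads (11.2 RPM) in female and 520 reads (42.8 RPM) in male leaves, again with 1 identical molecule. The male level was 3.82-fold higher (interval 3.18 to 4.62; log2 female over male -1.84). Of the 96 names that reached 10 RPM in either library and had the same listed sequence in both, 26 (27.1%) were at least 2-fold apart in either direction, and miR1030 was one of them while miR1220 was not.

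miR530, the name that overlaps miR1030, was read in male leaves only. It had no read (limit 0.227 RPM) in female and 98 reads (8.07 RPM) in male leaves. Set against the limit of 3 reads, its level was 35.5-fold higher in male leaves. Taken with miR1030, its share of the joined reads was 0 of 148 in female leaves (exact interval 0 to 2.46%; 3 reads would be 2.03%) and 98 of 618 in male leaves, 15.9% (exact interval 13.1 to 19.0%). The shares thus differed between these libraries beyond counting error, with reads taken as independent. The joined reads stood at 11.2 RPM in female and 50.9 RPM in male leaves, 4.54-fold higher in the male (3.79 to 5.47).

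miR537 was likewise found in male leaves only. It had no read (limit 0.227 RPM) in female and 442 reads (36.4 RPM) in male leaves, where it ranked 113 of 532 names. Reads under this name thus stood at least 160-fold higher in male leaves. Whether female reads of a like molecule stand under a predicted miRNA was not tested. On the log2 scale of RPM plus 1 its difference was -5.23, and 51 of the 232 names that reached 10 RPM in either library were as far from 0 or farther.

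For miR1023 and miR902 the read counts do not compare 1 molecule between the sexes, since the listed molecules differed. miR1023 had 9 reads (0.682 RPM) in female and 77 reads (6.34 RPM) in male leaves, 9.30-fold higher in the male (interval 4.65 to 21.1). miR902 had 122 reads (9.25 RPM) in female and 3 reads (0.247 RPM) in male leaves, a female over male ratio of 37.4 (12.5 to 184). Both counts of the lower library were so small that another listed sequence there rests on at most 9 and 3 reads.

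**Figure D2:**
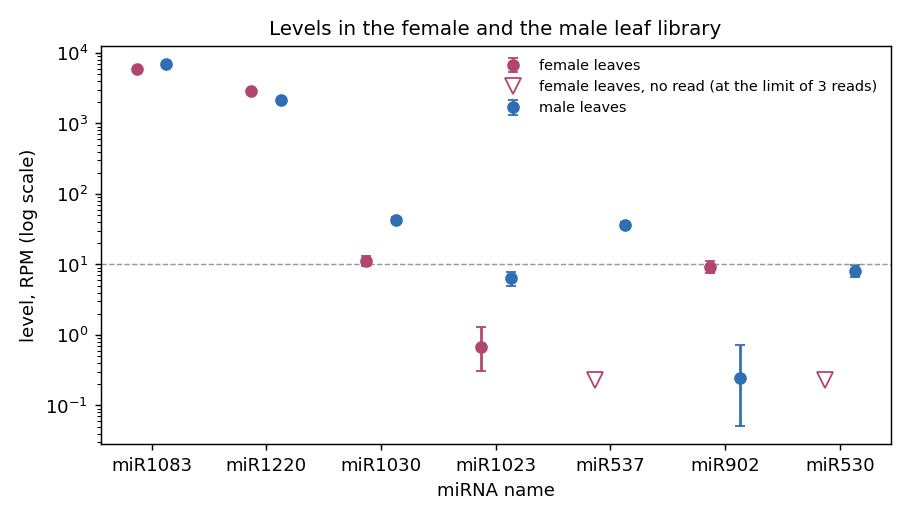
Level of each name in RPM on a log axis, in the female (left point) and the male library (right point), 1 library each; bars are exact 95% Poisson intervals, open triangles mark no read at the limit of 3 reads, and the dashed line is the 10 RPM minimum. miR1083 and miR1220 lie at 2136 RPM or above in both libraries, and miR537 and miR530 have male reads only.

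The order of the levels differed between the libraries below the 2 abundant names. In female leaves miR1030 came next, with miR902 not distinguishable from it by counting error (148 and 122 reads, ratio 1.21, interval 0.948 to 1.56), then miR1023, with miR537 and miR530 unread. In male leaves miR1030 was followed by miR537 (520 and 442 reads, ratio 1.18, 1.03 to 1.34). Then came miR530 and miR1023, which were not distinguishable (98 and 77 reads, ratio 1.27, 0.935 to 1.74), and miR902 was last. The name miR902 thus stood among the middle names in female leaves and lowest in male leaves. Its male place rests on 3 reads, and its listed molecules differed between the libraries.

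Of the 7 names, 4 reached 10 RPM in at least 1 library: miR1083, miR1220, miR1030 and miR537. On the log2 scale of RPM plus 1, none of these reached 2-fold in favour of female leaves, against 68 of 232 known names (29.3%). miR1030 and miR537, 2 of the 4, reached 2-fold in favour of male leaves, against 77 of 232 (33.2%), and in either direction the background was 145 of 232 (62.5%). The 2 of 4 names that reached 2-fold in either direction were thus no larger a share than among all known names. By the higher of their levels, the names nearest to the 10 RPM minimum were miR537 inside it (36.4 RPM) and miR902 just outside (9.25 RPM). Over all 7 names the median log2 female over male difference was -1.84, or -1.93 from reads with absent names at 3 reads. The same medians over all 723 known names were -0.11 and -0.12. The medians of the 7 names take in miR1023 and miR902, whose listed molecules differed between the libraries. They also take in miR530, whose reads may have been split from those of miR1030.

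**Figure D3:**
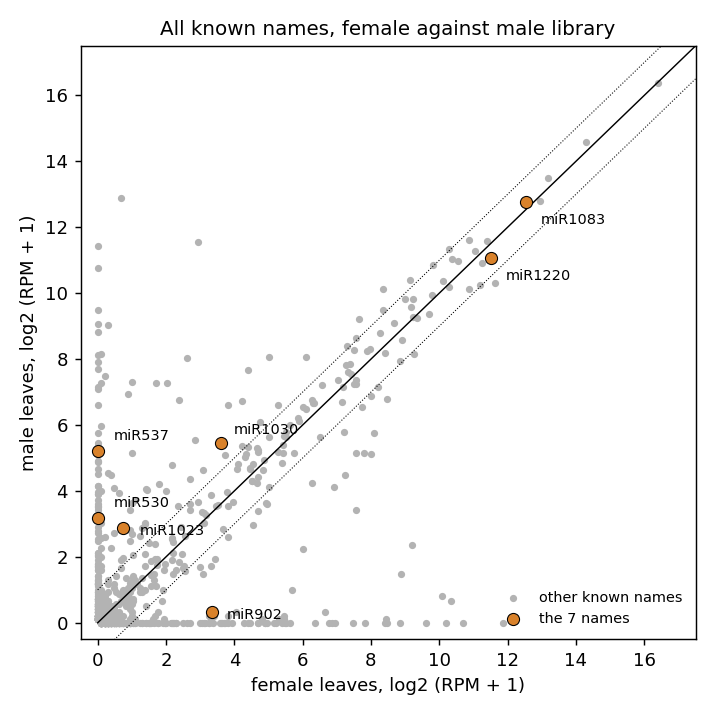
Level of every known name in the female (x axis) and the male library (y axis), both as log2 of RPM plus 1, with the 7 names in orange; the solid line marks equal values and the dotted lines a 2-fold difference. miR1083 and miR1220 lie between the dotted lines, miR1030, miR537, miR530 and miR1023 above them and miR902 below.

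The size of a ratio depended on the pseudocount for the low names and on the scaling for miR1083 and miR1220. A pseudocount added to both levels changes the size of a difference and cannot turn its direction.

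**Figure D4:**
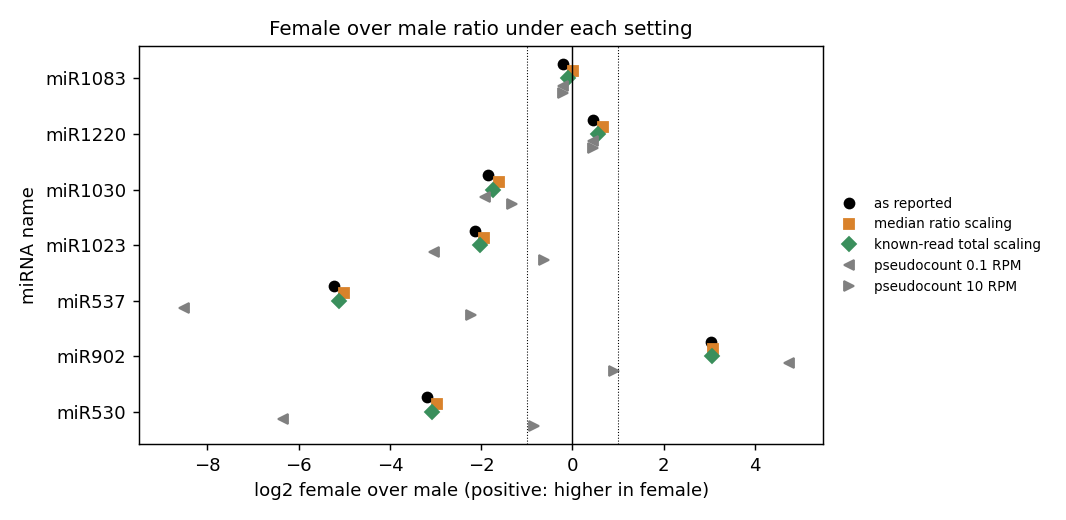
Log2 female over male difference of each name (x axis, positive when higher in female leaves) under 5 settings of scaling and pseudocount; dotted lines mark 2-fold. miR1083 lies on either side of 0 (-0.21 as reported, 0.02 with the median ratio), and the pseudocounts of 0.1 and 10 RPM shift miR1023, miR537, miR902 and miR530 most.

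Other names from the number blocks known from Physcomitrella and Selaginella went both ways. The list of such names was not complete, and miR535 (9384 RPM in female and 11552 RPM in male leaves) was left out as known widely in seed plants. Of 126 listed names, 37 were in the tables and 31 of these were not among the names above. Among the 31, 13 had no male read, 9 had no female read and 9 were found in both libraries, 4 of them with the same listed sequence. At 10 or more RPM there were 11, of which 5 reached 2-fold in favour of female and 2 in favour of male leaves, with 4 within 2-fold. Their median log2 difference over all 31 was 0.11, or 0.62 with absent names at 3 reads.

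The most abundant of these by mean level were miR1215, miR894, miR1077 and miR1101. miR1215 stood at 20053 RPM in female and 24472 RPM in male leaves and miR894 at 1325 and 2096 RPM, each with an identical molecule in both. miR1077 had 4517 female reads (342 RPM) and no male read, at least 1385-fold more in female leaves. miR1101, whose listed molecules were 1 edit apart, had 67 reads (5.08 RPM) in female and 3153 reads (260 RPM) in male leaves, 51.2-fold higher in the male (interval 40.2 to 66.2). Over all 723 names, 191 had no male read and 193 had no female read.

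The deposited target tables list transcripts predicted to pair with each name. They are computed from sequences and are no measurement of regulation, so they follow the listed molecules. The identifiers have empty annotation, hence no target function can be given. The tables cover 380 female and 340 male names, and the median name had 3 targets in both.

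miR1083 had 18 predicted targets in female and 16 in male leaves. The 16 were shared, 88.9% of the female and 100% of the male list, and all 16 were contigs whose names carry 1 cluster number, CL527. The other 2 female targets were contigs of cluster CL6282, and the male list, of the molecule with 1 further base, lacked that cluster. No other known name in the same library listed a contig of these clusters.

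miR1220, in spite of its abundance, had no predicted target in either library. Names without a listed target were 150 of 530 (28.3%) in female and 192 of 532 (36.1%) in male leaves.

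miR1030 had the same 28 targets in both libraries, of which 24 were public sequence records. At least 28 targets were listed for 14 names (3.68% of those with any) in female and 13 (3.82%) in male leaves. miR530 had 41 targets in male leaves, and 23 of them were also targets of miR1030, which is 56.1% of the miR530 list and 82.1% of the miR1030 list. The only other known name to share a target with either was miR5021, with 1 identifier in female leaves.

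miR537 had 7 targets in male leaves, 6 of them contigs of 1 cluster, CL3055. No other known name listed any of them. All 7 (100%) were however listed for a predicted female miRNA arm, FLGB-m0173_3p, and made up 87.5% of its 8 targets. Of 111 names with male reads only and any target, 5 shared a target with a predicted female arm and 2, miR537 and miR5370 (named after its value was seen), had their whole list in 1 arm. The sequence of that arm was not analysed here, and the table of levels uses other names for predicted miRNAs, so its level was not matched.

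miR1023 and miR902 had wholly different targets in female and male leaves. miR1023 had 5 in female and 37 in male leaves with 0 shared, and 35 of the male ones were public sequence records. Of the 37, 6 were also listed in male leaves for each of miR1044, miR1439 and miR1441. In all, 21 names in male leaves and 17 in female leaves shared at least 1 of the 37. In the female library 3 of the 5 targets of miR1023 were shared with miR1854. miR902 had 8 in female and 16 in male leaves with 0 shared, and 2 of the female ones were also listed for miR5139.

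**Figure D5:**
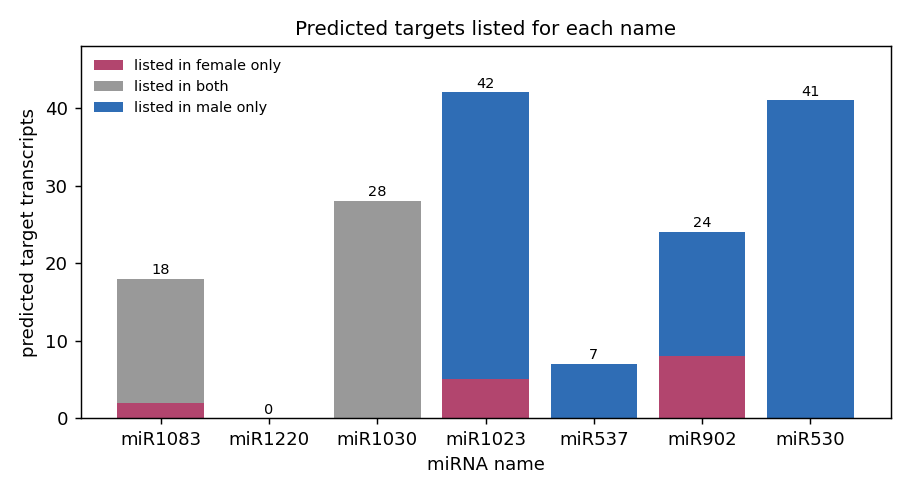
Number of predicted target transcripts (y axis) for each name, split into those listed in female leaves only, in both libraries and in male leaves only. All 28 of miR1030 and 16 of 18 of miR1083 are listed in both, the lists of miR1023 and miR902 share none, miR537 and miR530 have male lists only and miR1220 has none.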

How the data were processed

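Small RNA libraries of female and male Ginkgo biloba leaves were compared, 1 of each. Per the labels' protocols, total RNA was extracted with a plant RNA kit and libraries were made with standard Illumina methods. Aligner, miRNA database and target predictor: not given in the sources used here. All deposited levels, titled TPM by the authors, are RPM: each equals the deposited read count of the name divided by 1 library total, to within 5e-05 RPM. The deposited counts are whole reads per known name beside 1 sequence. Each name was treated as 1 miRNA. The number of predicted targets equalled the identifiers listed in every row of the deposited tables (0 differences).

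Read ratios carry exact 95% intervals (conditional binomial, Clopper-Pearson; scipy 1.17.1), which were tested on simulated data. The compared quantity was log2 of (female RPM + 1) over (male RPM + 1). Differences of 2-fold were counted over the 232 of 723 known names that reached 10 RPM in either library. Sequences were compared by edit distance (edlib 1.3.9), containment and common stretches of at least 16 bases. Besides the 7 names, the text names the 4 most abundant others of the list from moss and lycophyte number blocks, which leaves out miR535. It also names the nearest names by edit distance (at most 3) and names sharing targets (at most 3). The members and lists were chosen with earlier results of these data known. Alternatives were other pseudocounts, minimums, scalings, a 1.5-fold threshold, joined reads, and other definitions of the same sequence and of a shared stretch. Levels of predicted miRNAs were not used.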

Additional observations from a re-analysis of the deposited data

How the results depend on the processing

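Of 66 recomputed values, 46 were labelled as unchanged and 20 as moved. Counts were unchanged within 1.5 times, and levels were judged from the counting interval. A level labelled as unchanged need not lie inside the interval given above, as for miR902 and miR1023 under scaling by the median ratio. The log2 values hold a pseudocount and those intervals do not. Scaling by the median ratio gave log2 0.0156 for miR1083 and 0.68 for miR1220, and scaling by the total of known reads -0.11 and 0.56. With a pseudocount of 10 RPM the log2 values were -1.32 for miR1030, -0.61 for miR1023, -2.21 for miR537, 0.91 for miR902 and -0.85 for miR530, so that miR1023, miR902 and miR530 came within 2-fold. With 0.1 RPM miR537 moved to -8.51 and miR530 to -6.35, both set by the absence of female reads. Joined with miR1030, miR530 had -2.09. With no minimum, 1 of the 7 names reached 2-fold in favour of female and 4 in favour of male leaves, against 117 and 132 of all 723 names. Of the 7 names, only miR1083 and miR1220 reached a minimum of 100 RPM, and 0 reached 2-fold in either direction there. Of all names at that minimum, 32 did so in favour of female and 34 in favour of male leaves. The total of names at that minimum was not counted, so no share is given. Of miR1220 and miR1030, whose sequences were identical, 1 reached 2-fold in favour of male leaves. Contained sequences, or those within 2 edits, made 3 of 5 names the same. Stretches of 14 or 18 bases gave the same pair as 16. No paired analysis was possible because each sex had 1 library. Depth limits the lowest names: a count of 3 or 9 reads leaves the ratios of miR902 and miR1023 uncertain by several-fold.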

Other observations

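The listed molecule of miR1220 holds an inverted repeat of 5 bases, the longest among the 7 names (0 to 4 bases in the others). The repeat was searched as a stretch whose reverse complement follows after 3 or more bases. Such a repeat of 5 or more bases was present in 8 of 530 listed molecules (1.51%) in female and 17 of 532 (3.20%) in male leaves. This feature was chosen after the sequences were seen.

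A full match between the targets of a name read in 1 library and those of a predicted arm in the other was rare in both directions. Of 44 names with female reads only and 5 or more targets, 1 (miR5339, named after its value was seen) had its whole list in a male predicted arm. Of 38 such names with male reads only, 1 (miR537) had its whole list in a female predicted arm. The cases were unlike. All 6 targets of miR5339 were also in the male list of miR1023, whereas no other known name listed a target of miR537.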
